A study of Mus musculus with 16 samples.

Results

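The 9 genes described here encode the enzymes and receptors of adenosine and purine turnover: the ectonucleotidases Entpd1 and Nt5e, the adenosine receptors Adora2a, Adora2b and Adora3, and the catabolic enzymes Ada, Pnp, Gda and Xdh. They were chosen by name, as the rows of these symbols among 24001 gene rows of the expression table, and all 9 had a row. The RNA-seq libraries came from dendritic cells that had been cultured from bone marrow of NZM2410 mice, an inbred lupus-prone strain. Values are FPKM (fragments mapped to a gene, divided by its length in kilobases and by the mapped total), so levels can be set side by side between genes. Of the 9 genes, 8 reached 1 FPKM in at least 2 libraries and were tested, and Adora3 did not.

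Adenosine is made outside cells in steps. The surface enzyme CD39, encoded by Entpd1, strips phosphates from ATP and ADP to give AMP, and CD73, encoded by Nt5e, turns AMP into adenosine. Adenosine acts on G protein-coupled receptors, of which those encoded by Adora2a and Adora2b raise cyclic AMP and that of Adora3 lowers it. In dendritic cells signaling through the receptors that raise cyclic AMP is known to dampen inflammatory cytokine output. Adenosine deaminase (Ada) turns adenosine into inosine, purine nucleoside phosphorylase (Pnp) releases hypoxanthine or guanine from nucleosides, guanine deaminase (Gda) turns guanine into xanthine, and xanthine dehydrogenase (Xdh) makes uric acid.

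The 16 libraries formed 4 arms, each with 2 vehicle and 2 agonist libraries. Marrow was cultured for 7 days with 20 ng/ml of GM-CSF and 10 ng/ml of IL-4. Agonist cultures received loxoribine, a TLR7 ligand, and CpG DNA (1 μg/ml), a TLR9 ligand, for 24 h. The WT arm carried intact estrogen receptor α (Esr1) and the KO arm the truncated form named ERα short, and neither arm was operated on. Mice of the ERKO OVX arm had ERα short, those of Ex3a OVX had no ERα, and both were ovariectomized at 4 to 8 weeks of age and given estradiol pellets (0.25 mg, 90 days). Ages at marrow harvest are not given in the sources used here.

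These names follow the source labels, and the genotype labels go against them. The genotype labels give the null allele, Esr1(tm4.2Ksk), for the vehicle libraries of KO and ERKO OVX, and Esr1(tm1Ksk), the short form, for the agonist libraries of both arms and for all Ex3a OVX libraries. By the genotype labels, vehicle and agonist libraries of KO, and of ERKO OVX, would therefore differ in allele as well as in treatment. Esr1 itself was at 0.684 to 1.38 FPKM in WT and 1.77 to 2.57 FPKM in KO libraries. ERKO OVX libraries held 0.982 to 1.16 FPKM and Ex3a OVX libraries 0.283 to 0.364 FPKM. Summed reads do not show which allele a library carries. The labels do not state whether both libraries of a group stem from different animals or wells. The p-values therefore rest on the spread between libraries, which may be technical. For part of the WT libraries the labels also report damaged raw read files.

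Estimated depth was 40.1 to 47.6 M fragments (M, mega) in the unoperated libraries and 19.2 to 25.9 M in the ovariectomized ones. All 7 dendritic cell markers (Itgax, H2-Aa, H2-Ab1, Cd74, Ciita, Flt3 and Zbtb46) were at 1 FPKM or more in every group, and summed to 4633 to 5507 FPKM in unoperated and 9687 to 13331 FPKM in ovariectomized libraries. Cd74, H2-Aa and H2-Ab1 made up most of each sum. Zbtb46 went the other way, with group means of 13.4 to 26.8 FPKM in unoperated and 2.76 to 4.42 FPKM in ovariectomized groups, and Flt3 averaged 1.65 to 3.93 and 1.28 to 1.55 FPKM. Itgax averaged 101 to 113 FPKM in unoperated groups, 145 to 154 in ERKO OVX and 86.2 to 89.3 in Ex3a OVX. Macrophage markers (9 of 9 with a row) summed to 668 to 787 FPKM in WT and 119 to 157 FPKM in KO libraries. In ERKO OVX libraries the sum was 547 to 678 FPKM, and in Ex3a OVX libraries 1650 to 2141 FPKM. Granulocyte precursor markers (7 of 8 with a row) summed to 50.2 to 119 FPKM in unoperated libraries, 1140 to 1292 in ERKO OVX and 283 to 298 in Ex3a OVX. Mast cell and basophil markers (8 genes) summed to 0.478 to 1.47 FPKM in unoperated and 35.3 to 118 in ovariectomized libraries. Stromal and endothelial markers (7 genes) summed to at most 20.3 FPKM, T and NK cell markers (6 of 7 with a row) to at most 28.8 FPKM and B cell markers (5 genes) to at most 8.79 FPKM, each higher in ovariectomized than in unoperated libraries. Pecam1 made up most of the stromal and endothelial sum in ovariectomized groups, at 9.58 to 16.3 FPKM against 0.868 to 2.05 in unoperated groups. Cdh5 averaged 0.0314 to 0.114 FPKM in ovariectomized and 0.0803 to 0.349 in unoperated groups. Pdgfra averaged 0.331 to 0.507 FPKM in Ex3a OVX, 1.46 to 2.01 in ERKO OVX and 0.362 to 1.61 in unoperated groups. Col1a1 and Col1a2 were higher in each ovariectomized group. Gzma made up most of the T and NK cell sum in ovariectomized groups, at 2.77 to 19.8 FPKM against 0.0621 to 0.357 in unoperated groups. Of the 6 genes of that list, 5 averaged under 1 FPKM in each ERKO OVX group, 3 in Ex3a OVX vehicle and 2 in Ex3a OVX agonist. Cd79b made up most of the B cell sum in ovariectomized groups, at 2.55 to 7.09 FPKM, and the other 4 genes averaged under 1 FPKM. In bulk RNA, fewer cells of a type and less RNA per cell cannot be told apart.

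Entpd1 (CD39) lies on chromosome 19 (chr19:40612366-40741602, GRCm38) and ranged 11.7-fold over the libraries. Its level was 10.9 and 10.7 FPKM in WT vehicle and 4.96 and 5.07 FPKM in WT agonist libraries. In KO it was 4.95 and 5.26 FPKM with vehicle and 2.36 and 2.73 FPKM with agonist. The ERKO OVX libraries held 20.5 and 21 FPKM with vehicle and 13.1 and 12.8 FPKM with agonist. Within each treatment the Ex3a OVX libraries were highest, at 26.3 and 27.7 FPKM with vehicle and 20.3 and 20.2 FPKM with agonist. In order of mean level, the libraries of neighboring groups overlapped once, between KO vehicle and WT agonist.

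Nt5e (CD73, chr9:88327609-88372089) followed another order. It stood at 7.41 and 7.63 FPKM in WT vehicle and 1.86 and 1.54 FPKM in WT agonist libraries. KO vehicle libraries were highest, at 9.52 and 9.77 FPKM, and KO agonist libraries were at 2.61 and 2.96 FPKM. ERKO OVX libraries had 8.5 and 8.09 FPKM with vehicle and 4.02 and 3.9 FPKM with agonist. Ex3a OVX libraries had the lowest vehicle level, 2.36 and 2.25 FPKM, and 1.34 and 0.965 FPKM with agonist. No neighboring groups in this order overlapped.

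The balance of the 2 ectonucleotidases differed between arms. Entpd1 over Nt5e, as a ratio of FPKM within a library, averaged 1.44 in WT vehicle, 0.53 in KO vehicle, 2.5 in ERKO OVX vehicle and 11.7 in Ex3a OVX vehicle libraries. With agonist it averaged 2.98, 0.914, 3.27 and 18 in the same arms. Nt5e exceeded Entpd1 only in KO, in all 4 of its libraries.

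Adora2a, the high-affinity receptor gene (chr10:75316877-75334792), was the most abundant adenosine receptor in every library. WT libraries held 27.9 and 28.3 FPKM with vehicle and 49.7 and 51.5 FPKM with agonist. KO libraries held 39.5 and 38.9 FPKM with vehicle and 61.4 and 57.8 FPKM with agonist, the highest of the series. ERKO OVX libraries were at 24.1 and 24.7 FPKM, and 39 and 39.3 FPKM with agonist. Within each treatment Ex3a OVX libraries were lowest, at 19.7 and 19.6 FPKM, and 31.6 and 30.6 FPKM with agonist. Agonist libraries lay above vehicle libraries in each arm, and KO vehicle overlapped ERKO OVX agonist.

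Adora2b, the gene of a receptor with lower affinity for adenosine (chr11:62248984-62266452), was lowest in KO and highest in Ex3a OVX within each treatment. These extremes were the reverse of those of Adora2a, whereas WT libraries lay above ERKO OVX libraries for both genes within each treatment. Adora2b was at 8.21 and 8.4 FPKM in WT vehicle, 8.35 and 8.02 FPKM in WT agonist, 3.89 and 3.62 FPKM in KO vehicle and 4.04 and 3.85 FPKM in KO agonist libraries. It was at 5.92 and 6.43 FPKM in ERKO OVX vehicle and 5.77 and 6.35 FPKM in ERKO OVX agonist libraries. In Ex3a OVX it reached 12.5 and 11.1 FPKM with vehicle and 8.57 and 9.45 FPKM with agonist. Vehicle and agonist libraries overlapped in WT, KO and ERKO OVX and not in Ex3a OVX. Adora2a over Adora2b averaged 3.38 in WT vehicle, 10.5 in KO vehicle, 3.96 in ERKO OVX vehicle and 1.67 in Ex3a OVX vehicle libraries. With agonist the ratio averaged 6.19, 15.1, 6.47 and 3.47.

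**Figure D1:**
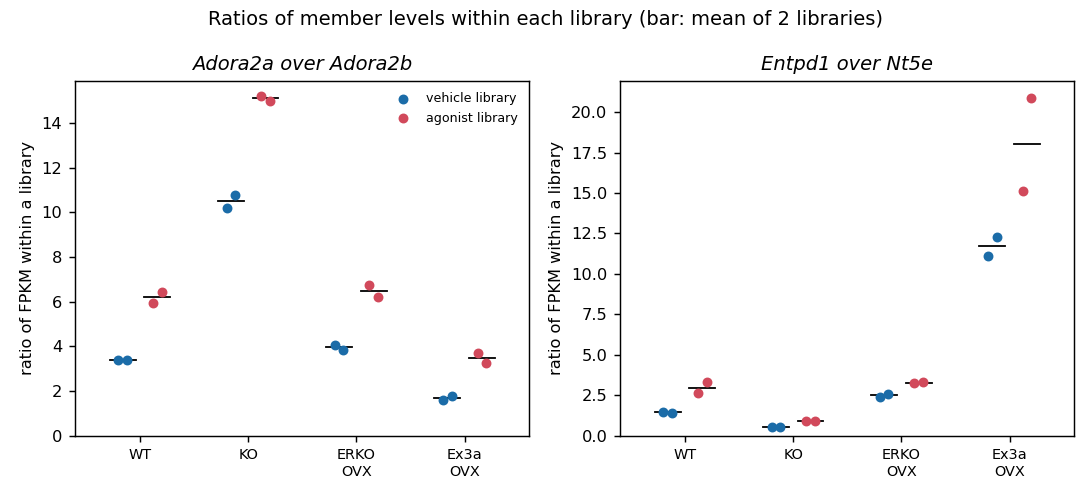
Ratio of FPKM within each library for Adora2a over Adora2b (left) and Entpd1 over Nt5e (right), by arm; points are libraries, blue for vehicle and red for agonist, and bars are means of 2 libraries. KO libraries have the highest receptor ratio, with a mean of 10.5 with vehicle, and Ex3a OVX libraries the highest enzyme ratio, with a mean of 11.7 with vehicle.

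Adora3 (chr3:105904421-105908928) was at 0.282 to 0.665 FPKM in all 16 libraries. The libraries of 1 group, ERKO OVX vehicle, held 0.64 and 0.282 FPKM. In order of mean level all neighboring groups overlapped, whereas KO agonist libraries (0.365 and 0.284 FPKM) lay below those of every group outside ERKO OVX, and no test was run. The gene lies inside the annotated span of Tmigd3 (chr3:105870858-105924044), so its reads may be shared.

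Ada (chr2:163726571-163750239) was highest in WT vehicle libraries, at 11.9 and 11.4 FPKM, against 4.81 and 4.58 FPKM in WT agonist libraries. KO libraries held 4.72 and 4.34 FPKM with vehicle and 2.58 and 2.69 FPKM with agonist. ERKO OVX libraries held 5.15 and 4.52 FPKM, and 4.32 and 4.48 FPKM with agonist. Ex3a OVX libraries held 7.75 and 6.96 FPKM, and 5.6 and 6.36 FPKM with agonist. The groups from ERKO OVX vehicle through WT agonist and KO vehicle to ERKO OVX agonist, with means from 4.84 to 4.4 FPKM, overlapped their neighbors.

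Pnp (chr14:50944303-50953412) was the most abundant of the 9 genes in 14 of 16 libraries, with Adora2a above it in both WT agonist libraries. It was at 49.8 and 48.9 FPKM in WT vehicle and 49.1 and 48.4 FPKM in WT agonist libraries, which overlapped. KO libraries had 59.8 and 61.5 FPKM, and 63.9 and 62 FPKM with agonist. ERKO OVX libraries had 82.6 and 82.5 FPKM, and 71.5 and 71.6 FPKM with agonist, and Ex3a OVX libraries 134 and 133 FPKM, and 128 and 126 FPKM with agonist. The paralog Pnp2 lies next to it, and the longest reading frames of both genes in the GENCODE transcripts are 97.9% identical over 870 bases. Pnp FPKM was 22.7 to 37.2 times that of Pnp2 by group mean, and reads shared between the copies may be split.

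Gda (chr19:21391307-21472661) had its highest levels in unoperated vehicle libraries, 12.7 and 12.5 FPKM in WT and 10.1 and 9.67 FPKM in KO. With agonist they were at 3.08 and 2.56 FPKM in WT and 2.57 and 2.94 FPKM in KO. ERKO OVX libraries had 4.31 and 3.96 FPKM, and 2.82 and 2.59 FPKM with agonist. Ex3a OVX libraries had 5.61 and 6.06 FPKM, and 1.59 and 1.87 FPKM with agonist. The agonist groups of WT, KO and ERKO OVX overlapped, with means of 2.82, 2.75 and 2.7 FPKM.

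Xdh (chr17:73883895-73950397) was at 36.2 and 34.4 FPKM in WT vehicle and 18.6 and 17.9 FPKM in WT agonist libraries. KO libraries held 29.1 and 28.4 FPKM with vehicle and 14.6 and 15 FPKM with agonist. ERKO OVX libraries held 30.3 and 30.4 FPKM, and 22.1 and 21.6 FPKM with agonist. Ex3a OVX libraries were highest, at 57.4 and 58.2 FPKM, and 43.3 and 42.2 FPKM with agonist. No neighboring groups overlapped for Xdh.

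**Figure D2:**
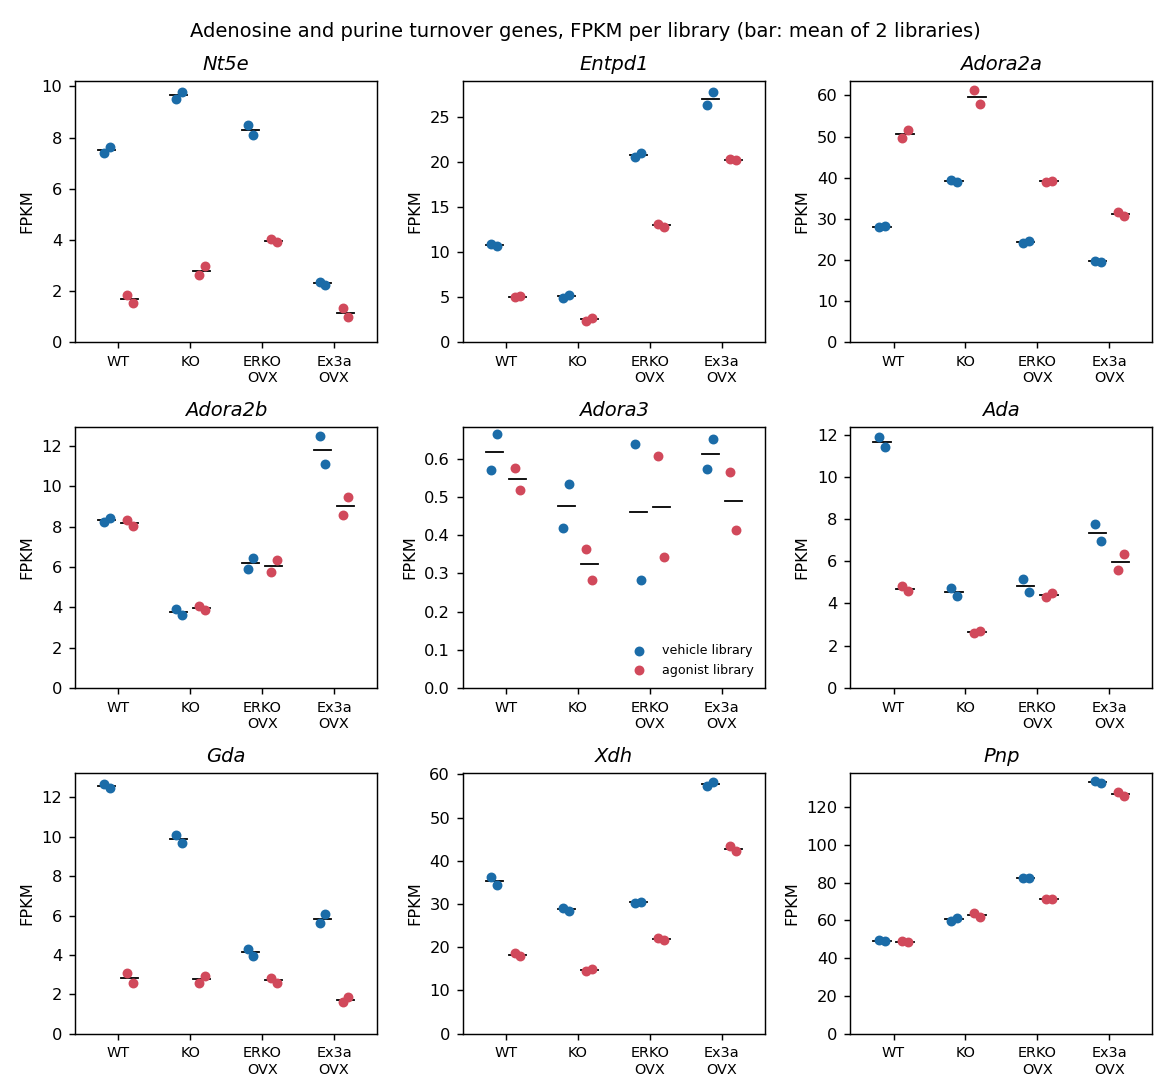
FPKM of the 9 genes by arm, each panel on its own axis from 0; points are libraries, blue for vehicle and red for agonist, and bars are means of 2 libraries. Red points lie above blue points in all arms for Adora2a and below them in all arms for Nt5e, Entpd1, Gda and Xdh.

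The agonist response asks how 24 h of TLR7 and TLR9 stimulation went with expression in each arm. Adora2a rose in all 4 arms, and Nt5e, Entpd1, Gda and Xdh fell in all 4. How many of all tested genes moved in the same direction in all 4 arms was not counted. Only the shares per arm are given below. Ada fell in WT, KO and Ex3a OVX, Adora2b fell in Ex3a OVX and Pnp fell in ERKO OVX. Values below are log2 differences of FPKM + 1 with their standard errors and limma p-values adjusted by Benjamini and Hochberg's method over all tested genes. They understate the change of genes with low FPKM.

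In WT, 1 of 8 members rose and 5 fell. Over all 11347 genes tested, 57.8% were called, 30.8% higher and 27% lower. The member median was -0.94 and the median of all tested genes 0.02. Gda changed most, by -1.84 ± 0.07 (limma adjusted p = 1.68e-08), followed by Nt5e at -1.66 ± 0.07 (limma adjusted p = 2.35e-08). The differences were -1.15 for Ada, -0.97 for Entpd1 and -0.91 for Xdh, and Adora2a rose by 0.83 ± 0.03 (limma adjusted p = 2.93e-08). The Adora2b difference was -0.02, with a 95% interval of -0.12 to 0.08, and the Pnp difference -0.02, with an interval of -0.08 to 0.04. When the FPKM of every library were scaled to a sum of 1000000, 18.7% of all genes were called higher and 38.5% lower, and Pnp was then also called lower, at -0.11.

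In KO, the counts were again 1 higher and 5 lower of 8, against 51.2% of 11346 genes called, 25.9% higher and 25.3% lower. Gda differed by -1.53 ± 0.07 (limma adjusted p = 7.63e-08) and Nt5e by -1.49 ± 0.07 (limma adjusted p = 6.85e-08). Xdh differed by -0.91, Entpd1 by -0.79 and Ada by -0.61, and Adora2a rose by 0.59 ± 0.03 (limma adjusted p = 3.92e-07). The Adora2b interval was -0.04 to 0.16 and the Pnp interval -0.01 to 0.11.

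The ovariectomized pairs differed by about sampling noise, and each was averaged and counted as 1 sample, with a spread assumed to be that of the unoperated pairs. In ERKO OVX, 1 of 8 members rose and 5 fell, against 37.5% of genes called, 18.3% higher and 19.2% lower. Nt5e differed by -0.91 ± 0.09 (limma adjusted p = 1.01e-04) and Entpd1 by -0.64 ± 0.07 (limma adjusted p = 1.88e-04). Gda differed by -0.47, Xdh by -0.46 and Pnp by -0.20, and Adora2a rose by 0.66 ± 0.05 (limma adjusted p = 1.75e-05). The Ada difference was -0.11 (95% interval -0.26 to 0.04) and the Adora2b difference -0.02 (-0.16 to 0.12). Scaling to that sum gave 28.5% of genes higher and 11.9% lower, and an Adora2b difference of 0.04.

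In Ex3a OVX, 1 of 8 members rose and 6 fell, against 37.3% of genes called, 19% higher and 18.3% lower. Gda fell by 1.32 ± 0.10 (limma adjusted p = 1.12e-05). Nt5e differed by -0.62, Xdh by -0.43, Entpd1 by -0.40, Adora2b by -0.35 and Ada by -0.26, and Adora2a rose by 0.64 ± 0.05 (limma adjusted p = 1.18e-05). The Ada call (limma adjusted p = 0.0149) was lost without the first vehicle library (limma adjusted p = 0.0508) and without the first agonist library (limma adjusted p = 0.0618). The Pnp difference was -0.07 (95% interval -0.15 to 0.01). Scaling to that sum gave 11% of genes higher and 26.5% lower, and Pnp was then also called lower, at -0.15.

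**Figure D3:**
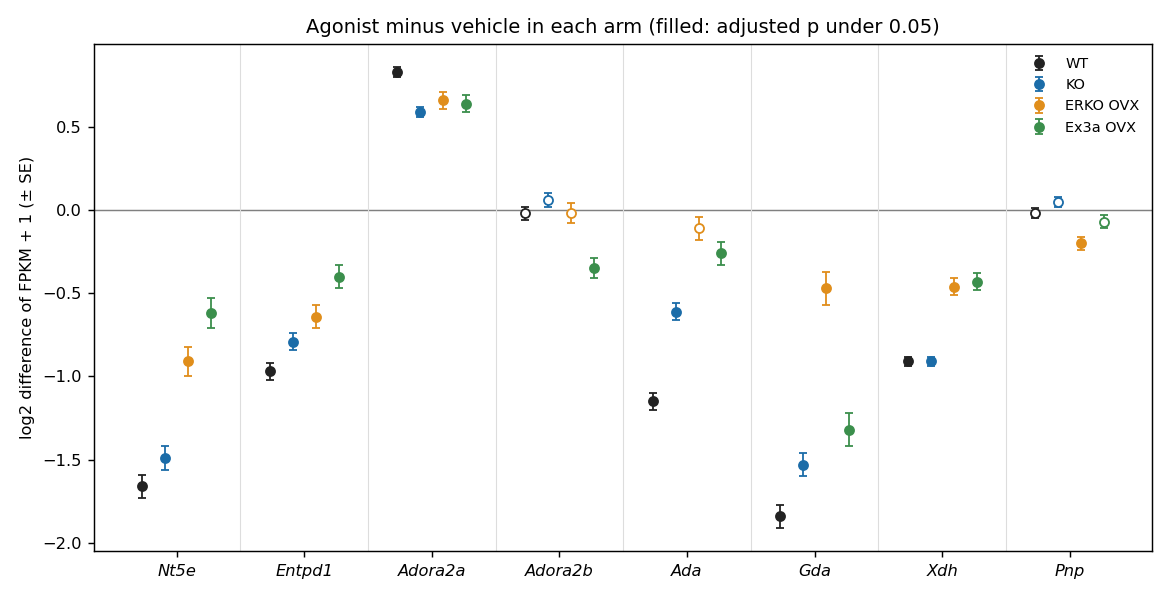
Log2 difference of FPKM + 1 between agonist and vehicle for the 8 tested genes, by arm (color); points are estimates, bars are standard errors, and filled points passed the adjusted p threshold of 0.05. Adora2a is above 0 in all arms, from 0.59 to 0.83, and Gda in WT is lowest, at -1.84.

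The upstream bases of 3 of the 4 genes that fell in all arms are shown because each of these genes fell with agonist in every arm; each is the 250 bases before an annotated RefSeq start (GRCm38.p6), 5′ to 3′ on the gene's strand. Windows were found for 7 of the 9 genes, with 2 for Entpd1. Capitals mark matches on either strand to a loose NF-kB form, which 50.8% of 32851 such windows hold, or to TGACG, the core bound by cyclic AMP response factors, which 20.8% hold. The window shares count 300 bases, including 50 after the start. The Nt5e bases span chr9:88327359-88327608 (plus strand), the Entpd1 bases chr19:40612116-40612365 and chr19:40659520-40659769 (plus strand), and the Gda bases chr19:21472662-21472911 (minus strand).
Nt5e: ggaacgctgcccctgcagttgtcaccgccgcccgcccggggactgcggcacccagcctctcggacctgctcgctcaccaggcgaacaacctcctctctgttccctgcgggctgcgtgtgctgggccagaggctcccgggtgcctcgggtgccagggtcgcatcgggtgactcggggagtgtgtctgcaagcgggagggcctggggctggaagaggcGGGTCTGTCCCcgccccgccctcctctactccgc
Entpd1 first start: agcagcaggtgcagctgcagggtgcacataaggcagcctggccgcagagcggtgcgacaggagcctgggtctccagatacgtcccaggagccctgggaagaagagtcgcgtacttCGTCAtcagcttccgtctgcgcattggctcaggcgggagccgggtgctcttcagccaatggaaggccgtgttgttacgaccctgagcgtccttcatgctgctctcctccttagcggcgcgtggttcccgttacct
Entpd1 second start: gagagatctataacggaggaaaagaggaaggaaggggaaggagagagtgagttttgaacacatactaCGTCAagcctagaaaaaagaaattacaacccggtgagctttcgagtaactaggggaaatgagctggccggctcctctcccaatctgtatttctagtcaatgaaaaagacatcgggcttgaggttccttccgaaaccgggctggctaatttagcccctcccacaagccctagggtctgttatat
Gda: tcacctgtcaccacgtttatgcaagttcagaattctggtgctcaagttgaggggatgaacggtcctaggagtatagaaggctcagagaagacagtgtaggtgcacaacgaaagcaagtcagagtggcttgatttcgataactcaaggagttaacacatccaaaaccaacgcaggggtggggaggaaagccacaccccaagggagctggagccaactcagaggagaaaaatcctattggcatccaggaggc
The loose NF-kB form matched Nt5e from -34 to -25 on the plus strand and, overlapping it, from -33 to -24 on the minus strand. Both Entpd1 windows held TGACG on the minus strand, read as CGTCA, from -135 to -131 at the first start and from -183 to -179 at the second. Gda held the loose form only after its start, from 16 to 25. The stricter NF-kB motif (0.411% of windows) and the palindromic estrogen response element (0.07% of windows) matched none of the 8 windows of the members. Matches are descriptions of letters and not of binding.

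By the source labels, KO against WT compares the ERα short form with the intact receptor in unoperated mice. By the genotype labels, the KO vehicle libraries would carry the null allele instead. With vehicle, KO had 3 of 8 members higher and 5 lower than WT, so all 8 were called, against 60.2% of all tested genes (31.5% higher and 28.7% lower). Ada differed by -1.19 ± 0.05 (limma adjusted p = 3.34e-08), Adora2b by -0.97 ± 0.04 (limma adjusted p = 7.35e-08) and Entpd1 by -0.95 ± 0.05 (limma adjusted p = 2.33e-07). The Gda difference was -0.33 and the Xdh difference -0.29, both called. Adora2a was higher by 0.47 ± 0.03 (limma adjusted p = 1.59e-06), Nt5e by 0.32 and Pnp by 0.29.

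With agonist, 3 members were higher and 4 lower in KO than in WT, against 54.8% of genes called (27.2% higher and 27.6% lower; 42.6% and 17.2% when scaled to that sum). Adora2b differed by -0.89 ± 0.04 (limma adjusted p = 1.50e-07), Entpd1 by -0.76 and Ada by -0.65. Nt5e was higher by 0.49 ± 0.07 (limma adjusted p = 1.55e-04), Pnp by 0.36 and Adora2a by 0.23. Gda differed by -0.03 (95% interval -0.18 to 0.13), and by 0.06 when scaled to that sum. Macrophage markers moved with these differences. Their sum was 119 to 157 FPKM in KO and 668 to 787 FPKM in WT, C1qa averaged 3.27 FPKM in KO vehicle and 113 FPKM in WT vehicle libraries, and the scavenger receptor Cd163 stayed at or below 0.11 FPKM in every group. Their part in the member differences was not tested.

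By the source labels, Ex3a OVX against ERKO OVX compares ERα null with ERα short under ovariectomy and estradiol. By the genotype labels, the vehicle comparison would be short against null, and both arms would carry the short form with agonist. With vehicle, 6 members were higher and 2 lower in Ex3a OVX, against 55.3% of genes called (29.3% higher and 26.1% lower). Xdh was higher by 0.91 ± 0.05 (limma adjusted p = 2.31e-07), Adora2b by 0.83 ± 0.06 (limma adjusted p = 2.37e-06) and Pnp by 0.68. Ada was higher by 0.52, Gda by 0.41 and Entpd1 by 0.37. Nt5e differed most, by -1.49 ± 0.09 (limma adjusted p = 6.52e-07), and Adora2a by -0.30.

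With agonist, 5 members were higher and 3 lower, against 62.7% of genes called (32.1% higher and 30.6% lower; 18.8% and 46.9% when scaled to that sum). Nt5e differed by -1.21 ± 0.09 (limma adjusted p = 2.64e-06) and Xdh by 0.93 ± 0.05 (limma adjusted p = 1.76e-07). Pnp was higher by 0.82, Entpd1 by 0.61, Adora2b by 0.50 and Ada by 0.37, and Adora2a differed by -0.32. Gda went the other way from the vehicle comparison, at -0.44 ± 0.10 (limma adjusted p = 0.003). The sum of macrophage markers was 1650 to 2141 FPKM in Ex3a OVX and 547 to 678 FPKM in ERKO OVX, with C1qa at 116 and 2.43 FPKM on average with vehicle. Granulocyte precursor markers summed to 283 to 298 FPKM in Ex3a OVX and 1140 to 1292 FPKM in ERKO OVX. S100a8 and S100a9 made up most of that gap, with vehicle means of 173 and 58.3 FPKM in Ex3a OVX against 925 and 291 FPKM in ERKO OVX. Between the same groups Mpo averaged 16.2 and 24 FPKM, Ngp 3.59 and 3.91, Elane 1.02 and 1.28, and Ltf 2.08 and 1.25. The part of either list in the member differences was not tested.

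**Figure D4:**
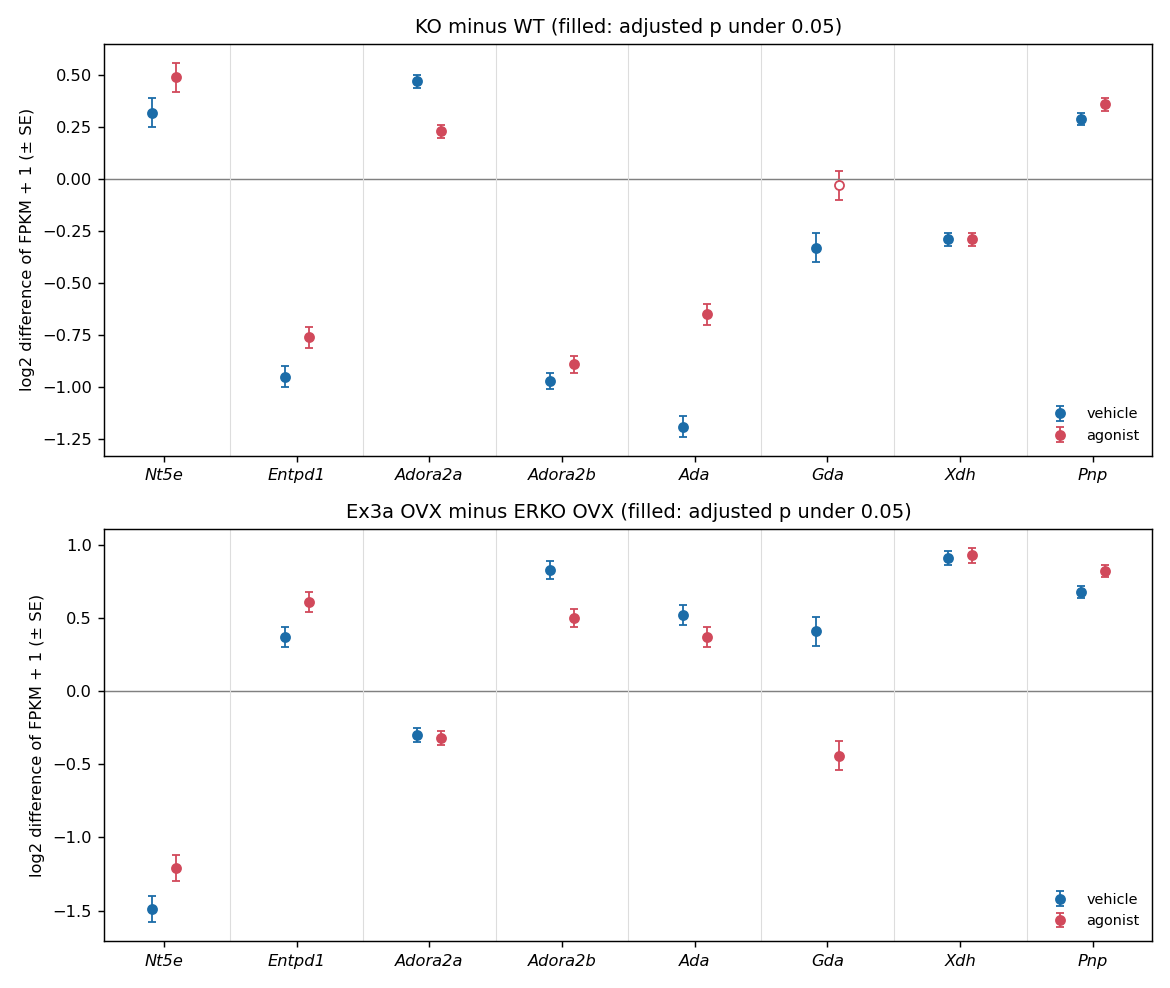
Log2 difference of FPKM + 1 for the 8 tested genes, KO minus WT (top) and Ex3a OVX minus ERKO OVX (bottom), blue with vehicle and red with agonist; bars are standard errors and filled points passed the adjusted p threshold of 0.05. Nt5e is above 0 at the top and below 0 at the bottom, with -1.49 for vehicle, and Gda changes sign between treatments at the bottom, from 0.41 to -0.44.

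By the source labels, ERKO OVX against KO sets ERα short mice with and without ovariectomy and estradiol side by side. By the genotype labels, both arms would carry the null allele with vehicle and the short form with agonist. Surgery, library depth and the sum of FPKM (481738 to 487852 in KO and 612322 to 652417 in ERKO OVX) changed together and cannot be told apart. With vehicle, 3 members were higher and 3 lower in ERKO OVX, against 80.9% of genes called (40.9% higher and 39.9% lower; 18.9% and 64.6% when scaled to that sum). With agonist, 6 were higher and 1 lower, against 78.7% (40.1% higher and 38.6% lower; 21.4% and 59.4% when scaled to that sum). Scaling to that sum moved the median of all genes from 0.01 to -0.36 with vehicle and from 0.01 to -0.27 with agonist. The members called higher and lower were then 2 and 5 with vehicle and 4 and 3 with agonist. With vehicle, Ada and Xdh turned to -0.28 and -0.32 and the Pnp call was lost (0.04). With agonist, Pnp turned to -0.13 and the Nt5e call was lost (0.17, limma adjusted p = 0.116). The differences in the next sentences kept their call under that scaling. Entpd1 was higher by 1.83 ± 0.06 with vehicle (limma adjusted p = 2.26e-09) and 1.98 ± 0.06 with agonist (limma adjusted p = 1.55e-09). Adora2a differed by -0.66 with vehicle and -0.59 with agonist, and Gda by -1.08 with vehicle (limma adjusted p = 9.44e-07). The Nt5e difference with vehicle, -0.20, had a limma adjusted p of 0.046 and lost its call with the replicate number as a block (limma adjusted p = 0.0621) or without either KO vehicle library (limma adjusted p = 0.0802 and 0.131), either WT vehicle library (0.0631 each) or the second ERKO OVX vehicle library (0.0863). It was also lost with a pseudocount of 0.1 FPKM (limma adjusted p = 0.0981), with no filter on low values (0.102) and with neither robust nor trend moderation (0.0531). Markers of other cells differed between these arms too. Granulocyte precursor markers summed to 95.4 to 119 FPKM in KO and 1140 to 1292 in ERKO OVX, mast cell and basophil markers to 0.478 to 0.716 and 84.1 to 118 FPKM, and macrophage markers to 119 to 157 and 547 to 678 FPKM. Their part in the member differences was not tested.

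The size of the agonist response was also compared between arms. KO and WT differed in the response of 2 of 8 members, against 6.98% of genes. The fall of Ada was smaller in KO by 0.54 ± 0.07 (limma adjusted p = 0.0017), and the rise of Adora2a was smaller in KO, at a difference of -0.24 ± 0.05 (limma adjusted p = 0.0175). The Adora2a difference lost its call without either WT vehicle library, without the second WT agonist library or without the first KO vehicle library (limma adjusted p = 0.0555 to 0.0736), as well as with no filter on low values (0.0709) and with neither robust nor trend moderation (0.0529). Scaling to that sum gave 7.09% of genes higher and 2.39% lower against 2.31% and 4.67% without it, and an Adora2a difference of -0.16 (limma adjusted p = 0.0691), and Pnp was then called, at 0.15.

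Ex3a OVX and ERKO OVX differed in the response of 2 of 8 members, Gda and Adora2b, against 31.2% of genes (16.6% higher and 14.6% lower; 6.57% and 29.7% when scaled to that sum). The response difference was -0.85 ± 0.14 for Gda (limma adjusted p = 0.00185) and -0.33 ± 0.09 for Adora2b (limma adjusted p = 0.0196). The Adora2b call was lost without the first Ex3a OVX vehicle library (limma adjusted p = 0.0555). ERKO OVX and KO differed in 5 members, against 23.8% of genes (11.3% higher and 12.4% lower; 21.7% and 6.89% when scaled to that sum). The response was less negative in ERKO OVX for Gda by 1.06 ± 0.12 (limma adjusted p = 3.12e-04), Nt5e by 0.59, Ada by 0.50 and Xdh by 0.46, and more negative for Pnp, at -0.26. The interval of the Adora2a response difference was -0.17 to 0.13 between Ex3a OVX and ERKO OVX and -0.06 to 0.20 between ERKO OVX and KO.

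The rest of the pathway was followed through 7 lists. Beside the counts below, the shares of all tested genes called with agonist were, for WT, 30.8% higher and 27% lower, and for KO 25.9% higher and 25.3% lower. They were 18.3% higher and 19.2% lower for ERKO OVX, and 19% higher and 18.3% lower for Ex3a OVX. With FPKM scaled to the common sum the shares were 18.7% and 38.5%, 23.6% and 27%, 28.5% and 11.9%, and 11% and 26.5%, higher and lower in that order of arms. Among enzymes that act on nucleotides outside cells or at membranes, 7 of 13 genes were tested. Acpp, a phosphatase that can also turn AMP into adenosine, rose in all 4 arms. Its FPKM was 45 and 45.6 with vehicle and 168 and 166 with agonist in WT, 28.2 and 27 against 126 and 130 in KO, 135 and 130 against 301 and 302 in ERKO OVX, and 29.7 and 29.5 against 86.5 and 88.8 in Ex3a OVX. Agonist libraries lay above vehicle libraries throughout, with log2 differences of 1.86, 2.17, 1.18 and 1.53 (limma adjusted p from 5.34e-11 to 7.33e-07). Cd38, the NAD glycohydrolase, rose in all 4 arms, by 1.14 in WT and KO, by 0.92 in ERKO OVX and by 0.24 in Ex3a OVX. Of this list, 2 genes rose and 2 fell in WT, and 3 rose and 1 fell in KO. The counts for ERKO OVX were 3 and 0, and those for Ex3a OVX 4 and 2. In WT these counts of 7 genes are near the shares of all genes. Scaled to the common sum, the counts were 2 and 3 in WT and 2 and 1 in KO, with those of the other arms as before.

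Ampd3, the AMP deaminase that turns AMP into IMP inside cells, rose in 3 arms, by 1.14 in WT, by 0.95 in KO and by 0.67 in ERKO OVX. Its level was 28.8 and 29.9 FPKM in ERKO OVX vehicle and 9.09 and 9.7 FPKM in Ex3a OVX vehicle libraries, a difference of -1.55 ± 0.04 (limma adjusted p = 2.33e-09). Adk, the adenosine kinase, fell in WT (-0.37) and KO (-0.30). Of 10 tested genes of intracellular AMP and adenosine handling, 3 rose and 2 fell in WT, and 3 rose and 3 fell in KO. The counts for ERKO OVX were 1 and 1, and those for Ex3a OVX 1 and 0. The WT and KO counts are near the shares of all genes. Scaled to the common sum, 2 rose and 3 fell in WT, and the KO counts were as before. ERKO OVX then had 2 higher and 0 lower, and Ex3a OVX 0 of either.

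Among the nucleoside transporters and Adora1, 4 of 8 genes were tested. Slc28a3, a concentrative transporter, rose by 1.28 in WT and 0.83 in KO, and Slc29a3, an equilibrative one of lysosomes, fell in all 4 arms, at -0.61, -0.49, -0.29 and -0.18 in the order WT, KO, ERKO OVX and Ex3a OVX. Of 11 tested P2 receptors and channels for ATP, 3 rose and 5 fell in WT, and 2 rose and 4 fell in KO. The counts for ERKO OVX were 0 and 4, and those for Ex3a OVX 3 and 3. Scaled to the common sum 2 rose and 6 fell in WT, and the KO counts were as before. ERKO OVX then had 2 higher and 3 lower, and Ex3a OVX 1 higher and 4 lower. P2rx1, an ATP-gated channel, rose by 1.00 in WT and 0.78 in KO and fell in ERKO OVX (-0.49), and the response difference between ERKO OVX and KO was -1.28 ± 0.10 (limma adjusted p = 4.45e-05). The ADP receptor P2ry13 was at 43 and 43.1 FPKM in Ex3a OVX vehicle and 9.79 and 9.13 FPKM in ERKO OVX vehicle libraries, a difference of 2.07 ± 0.08 (limma adjusted p = 2.83e-08). The ATP-release channel Panx1 differed between KO and WT by -0.94 with vehicle and -1.12 with agonist.

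All 13 genes of de novo purine synthesis were tested. With agonist 0 rose and 8 fell in WT, where 27% of all genes were called lower, and 0 rose and 7 fell in KO, where 25.3% were. For ERKO OVX the counts were 1 and 5, and for Ex3a OVX 2 and 4. Scaled to that sum, in the same order, the counts were 0 and 12, 0 and 7, 1 and 3, and 0 and 5. The list medians were -0.16, -0.11, -0.09 and -0.04, and those of all tested genes 0.02, 0.01, 0.00 and 0.01. Adssl1, an adenylosuccinate synthase isozyme on the path from IMP to AMP, fell in every arm, at -1.30, -1.11, -0.63 and -0.70. Of the 4 salvage genes, 0 rose, and 2 fell in each of WT, KO and ERKO OVX and 1 fell in Ex3a OVX. Dck, deoxycytidine kinase, was at 30.9 and 34.2 FPKM in Ex3a OVX vehicle and 15.8 and 15 FPKM in ERKO OVX vehicle libraries, a difference of 1.03 ± 0.06 (limma adjusted p = 6.89e-07). Of the 8 genes of purine base degradation beyond the members only Pnp2 was tested, and it fell in ERKO OVX, at -0.67 ± 0.11 (limma adjusted p = 0.00155).

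**Figure D5:**
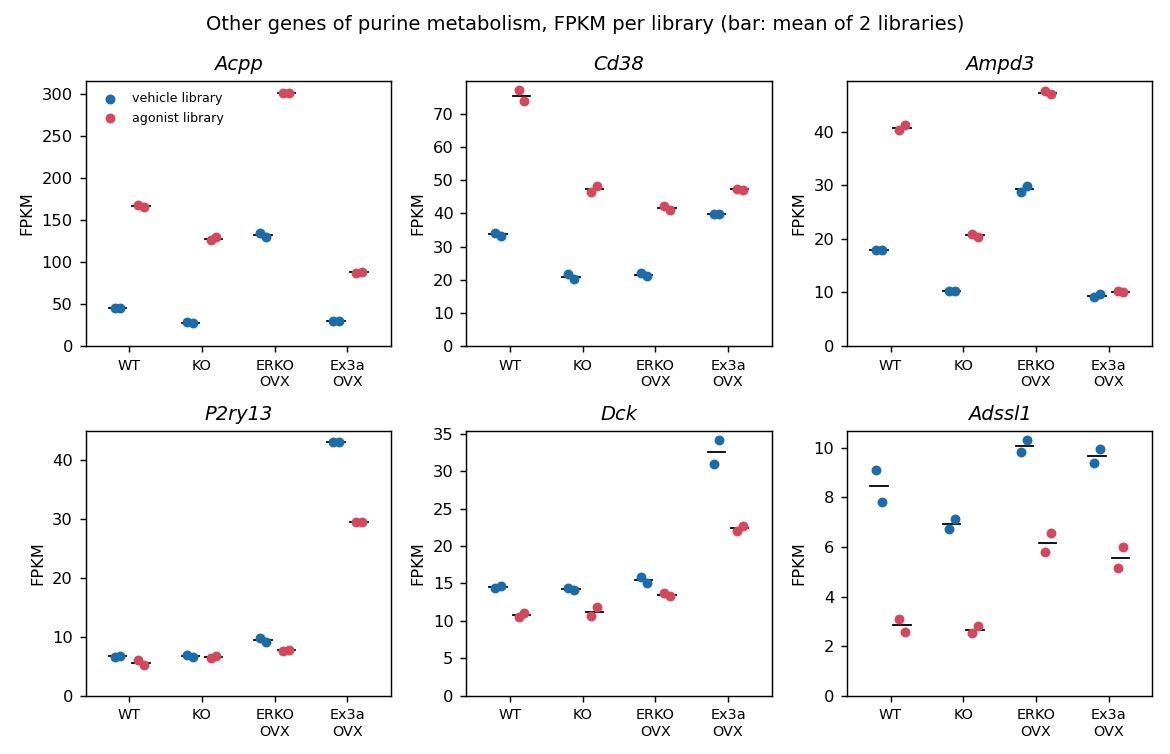
FPKM of 6 other genes of purine metabolism and nucleotide sensing by arm, each panel on its own axis from 0; points are libraries, blue for vehicle and red for agonist, and bars are means of 2 libraries. Acpp agonist libraries lie above vehicle libraries in every arm, and P2ry13 is highest in Ex3a OVX, at 43 and 43.1 FPKM with vehicle.

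Across the 12 samples of the fit, which share groups and sequencing depth, the members' log2 levels were compared by Pearson's r as a description. Entpd1 and Adora2a ran opposite to each other (r = -0.91), as did Xdh and Adora2a (r = -0.93). Entpd1 ran with Xdh (r = 0.84) and Nt5e with Gda (r = 0.81). Over the 12 samples together Nt5e and Entpd1 did not run together (r = 0.01), although both fell with agonist in every arm. Among vehicle groups, Ex3a OVX had the lowest Nt5e and the highest Entpd1 level. The genes whose levels ran most like a member's over these samples were Ankrd55 and Sbk1 for Nt5e (r = 0.980 and 0.979), Slc35f6 and Nt5dc2 for Entpd1 (r = 0.992 and 0.991), and Ptprc and Gnpda2 for Adora2a (r = 0.981 and 0.976). They were Stambpl1 and Bin1 for Adora2b, Tmem154 and Rragd for Ada, Reps2 and Nav1 for Gda, Snx5 and Evl for Xdh, and Loxl3 and Trex1 for Pnp, with r from 0.961 to 0.993.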

How the data were processed

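The authors deposited 1 table of FPKM values, with 16 library columns. Per the submitters' processing notes, the build was mm10, and STAR, HTSeq, cutadapt, FastQC and DESeq2 are named without their roles. For the program that computed the FPKM, no name is given in the sources used here. Since FPKM is relative to the library total, a few abundant genes can lower all others, and fragment counts are lost. Depth was estimated from the spacing of low values in 3933 genes with 1 transcript. Only 70.1 to 75.8% of these values lay within 0.1 of a whole fragment, so no count test was run. Rows of small RNAs (1237) were left out, and 5 zeros in otherwise expressed genes (none in a member) were taken as missing.

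Groups follow the source labels. Genes with 1 FPKM in at least 2 libraries (11347) were tested with limma 3.58.1 in R 4.3.3 (trend, robust empirical Bayes) on log2(FPKM + 1), 1 coefficient per group, Benjamini-Hochberg adjusted within a comparison, threshold 0.05. The method was tested on simulated data. In genes with enough fragments, the median variance between the 2 libraries of a group over the sampling variance was 0.927 to 1.26 in ovariectomized and 1.95 to 3.20 in unoperated groups. Each ovariectomized pair was therefore averaged, which left 12 samples, with 4 residual degrees of freedom that come from unoperated groups alone. Alternatives changed the pseudocount, filter, scaling, averaging, moderation and replicate block, and left out each library.

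The members, gene lists and tests were chosen with earlier results of these data known. Of the other pathway genes, at most the 3 largest called differences per list and comparison could be named, and per member the 2 genes with the most similar levels. Coordinates and upstream sequences are those of RefSeq on GRCm38.p6, and the Pnp comparison used GENCODE transcripts. The loxoribine dose is left out because its unit in the labels could not be checked.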

Additional observations from a re-analysis of the deposited data

Results flagged for a closer look

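Each entry below is a member whose agonist response differed between 2 arms by a test of the difference itself (limma interaction contrast, adjusted over all tested genes). Values are differences of log2 responses. Between KO and WT they were -0.24 for Adora2a (response 0.59 in KO and 0.83 in WT) and 0.54 for Ada (-0.61 and -1.15). Between Ex3a OVX and ERKO OVX they were -0.33 for Adora2b (-0.35 and -0.02) and -0.85 for Gda (-1.32 and -0.47). Between ERKO OVX and KO they were 0.59 for Nt5e (-0.91 and -1.49), 0.50 for Ada (-0.11 and -0.61), 1.06 for Gda (-0.47 and -1.53), 0.46 for Xdh (-0.46 and -0.91) and -0.26 for Pnp (-0.20 and 0.05). The last 5 compare arms that also differ in surgery and library depth. By the genotype labels, the vehicle and agonist libraries of KO and of ERKO OVX carry different alleles, so a response in either arm cannot be told apart from an allele difference. Groups of 2 libraries were not searched for outlying samples.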

How the results depend on the processing

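Of 2848 values of single members under an alternative, 2780 kept direction and call, 24 gained a call, 21 lost one and 23 changed sign. Counts of called members stayed within 1.5 times in 11 of the 13 comparisons under every alternative run. For the response difference between KO and WT (2 called) the count was 4 with a pseudocount of 5 FPKM, 1 with no filter on low values and 1 with neither robust nor trend moderation, and 1 to 3 without single libraries. Calls over all genes moved as well, from 792 to 961, 404 (of a larger set of genes) and 597 in that order. They were 431 to 792 without single libraries. For the response difference between Ex3a OVX and ERKO OVX (2 called) the count was 5 with all 16 libraries as separate samples, 5 with 16 libraries and the replicate block (an alternative added after the data were seen), and 1 to 3 without single libraries. Calls over all 11347 genes went from 3544 to 5533 and 5502 with the 16 libraries, and were 3275 to 3701 without single libraries.

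Signs changed when FPKM were scaled to a sum of 1000000 for Adora2b in the ERKO OVX response (0.04), Gda in KO against WT with agonist (0.06), Ada (-0.28) and Xdh (-0.32) in ERKO OVX against KO with vehicle, Pnp (-0.13) in the same pair with agonist, and Xdh (-0.12) and Pnp (-0.02) in the response difference between Ex3a OVX and ERKO OVX. With a pseudocount of 5 FPKM they changed for response differences of Nt5e (-0.01, KO against WT), Xdh (-0.00, Ex3a OVX against ERKO OVX) and Entpd1 (-0.10, ERKO OVX against KO), and with 0.1 FPKM for Xdh (-0.01, KO against WT). Without single libraries, values ranged from -0.04 to 0.01 (Adora2b, WT response), -0.08 to 0.03 (Adora2b, ERKO OVX response), -0.12 to 0.07 (Gda, KO against WT with agonist), -0.00 to 0.15 (Ada, ERKO OVX against KO with vehicle), -0.09 to 0.05 (Gda, the same pair with agonist) and -0.04 to 0.04 (Xdh, response difference of KO and WT). The cause was not tested.

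Replicate numbers did not pair the samples, since the correlations of same-numbered deviations were -0.07 to 0.06 over all pairs of groups. With the replicate block on 12 samples, the called members in ERKO OVX against KO with vehicle went from 6 to 5, and no other member call changed. Calls over all genes in that comparison went from 9175 to 9118. The alternative with unoperated groups alone was run for comparisons within them. Depth in the ovariectomized libraries was lower, and Adora3 was too low to test in any.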
